A study of Mus musculus with 6 samples.

Results

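The genes of the cytosolic ribosome's proteins were read in bulk RNA-seq of mouse dorsal root ganglia, which hold the cell bodies of the body's sensory neurons. Members were taken by name: protein-coding genes called Rpl or Rps with a number, the stalk genes Rplp0, Rplp1 and Rplp2, and Rpsa. Rps18, pseudogenes and S6 kinase genes were left out. The rule found 82 of the 54532 gene rows. Of these, 79 reached 10 normalised reads in at least 3 libraries and were tested, 48 of the large and 31 of the small subunit. Rpl10l, Rpl39l and Rpl24 did not.

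Both groups were C57BL/6 mice aged 8 weeks, with floxed Hdac2 alleles. The knockout (Hdac2 cKO, 3 libraries) was Adv-Cre+/hdac2-flop++: the Advillin promoter, active in primary sensory neurons, drove Cre recombinase. The controls (WT, 3 libraries) were littermates of genotype hdac2-flop++ that carried no Cre, so the groups also differed by Cre itself. Whether animals were pooled for a library is not stated in the labels, so the spread behind each p-value is that between libraries and may be partly technical. Glia, blood and other cells of the ganglion are not among the driver's main targets and contribute to the RNA. In such bulk samples, fewer cells of a type and less RNA per cell cannot be told apart.

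Each ribosome joins a small subunit, which reads the messenger RNA, to a large subunit, which forms the peptide bond. Their proteins are needed in near-equal amounts, and their mRNAs are among the most abundant of most cells. Many of these mRNAs begin with a C followed by a run of C and T bases, the terminal oligopyrimidine (TOP) motif, through which mTOR signalling and the protein Larp1 control their translation. In sensory neurons, mRNAs of ribosomal proteins are also carried into axons.

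At the start of the gene, some of these genes have a sequence feature that the name rule did not use, so a few starts are shown here. RefSeq windows (GRCm38.p6) of 250 bases before to 50 bases after the start were matched by symbol for 62 of the 82 genes. A start on C with at least 5 C or T bases in a row was found in 12 of the 62 (19.4%), against 3.01% of all 27025 genes of the table with a window. The lines below give the 40 bases before and the first 15 bases of the transcript, 5′ to 3′. Capitals mark a run of at least 5 C or T bases at the start, and CCGGAAG or its reverse complement wherever it falls in the printed stretch. Rps6, Rplp2, Rps27, Rpl28 and Rpl38 are shown for such runs, while Rps10, Rpl31 and Rpl41 recur in the results below and Rpl3l is the muscle paralog.
Rps6 (chr4:86857353-86857407, minus strand): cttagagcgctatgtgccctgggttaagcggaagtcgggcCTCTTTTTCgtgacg
Rplp2 (chr7:141447611-141447665, plus strand): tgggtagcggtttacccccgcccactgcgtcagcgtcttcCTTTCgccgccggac
Rps27 (chr3:90213634-90213688, minus strand): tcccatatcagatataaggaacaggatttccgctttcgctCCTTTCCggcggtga
Rpl28 (chr7:4792925-4792979, plus strand): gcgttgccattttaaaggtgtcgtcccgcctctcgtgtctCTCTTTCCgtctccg
Rpl38 (chr11:114668540-114668594, plus strand): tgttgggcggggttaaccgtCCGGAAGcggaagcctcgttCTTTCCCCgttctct
Rps10 (chr17:27635230-27635284, minus strand): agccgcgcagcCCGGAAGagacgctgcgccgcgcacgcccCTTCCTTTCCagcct
Rpl31 (chr1:39367811-39367865, plus strand): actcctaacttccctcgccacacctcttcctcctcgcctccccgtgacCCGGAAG
Rpl41 (chr10:128549154-128549208, minus strand): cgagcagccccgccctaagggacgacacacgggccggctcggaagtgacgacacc
Rpl3l (chr17:24727786-24727840, plus strand): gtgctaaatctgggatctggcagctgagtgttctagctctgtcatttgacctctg

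The run of C and T bases was 10 bases long at the RefSeq start of Rps10, 9 in Rps6 and 8 in Rpl28 and Rpl38. Rpl31 had a run of 3 and Rpl41 and Rpl3l began on another base. Runs of at least 8 C or T bases that touch the 5 bases on either side of the start were found in 37.1% of the ribosomal protein genes with a window, against 11.4% of all genes, and CTTTCC from 10 bases before to 12 after the start, on the sense strand, in 14.5% against 1.08%. CCGGAAG, searched on both strands of the whole 300-base window, was found in 40.3% against 9.93%. AAGATGG, also on both strands, was found in 16.1% against 7.28%, and TATAAA on both strands in 11.3% against 15.7%. CTTTCC can lie within a longer run of C and T bases. These matches describe letters in the windows and do not show a start site in use or a bound factor.

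Hdac2 (ENSMUSG00000019777), a histone deacetylase and the gene deleted, stood at 2816, 1715 and 3498 normalised reads (reads divided by 1 size factor per library) in the controls, against 499, 372 and 535 in the knockout libraries. Values are listed here and below in the order of libraries 1, 2 and 3 of each group. All knockout libraries were below all controls. The log2 fold change, here and below Hdac2 cKO minus WT on the scale of log2 (normalised reads + 1), was -2.47. Reads assigned to genes ranged from 18943595 in WT 2 to 42070531 in Hdac2 cKO 3. All 18 sensory neuron markers passed the filter on low values, with summed levels of 532660 to 784905 normalised reads in WT and 556922 to 737225 in Hdac2 cKO. Of the 18, 8 had log2 fold changes above 0 and 10 below. In every knockout library 4 were higher and 1 lower than in all controls, against 4.63% and 3.91% of all genes tested. The sums thus do not show each marker to be unchanged. WT 3 stood apart from the other 5 libraries: 40.1% of the 18410 genes tested lay more than 1 log2 unit from the mean of the others there, against 11.4 to 14.2% for each other library. Fold changes and medians are therefore given with and without WT 3 where it moved them.

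Ribosomal protein genes took 1.73, 1.81 and 1.93% of all gene reads in the controls, against 1.58, 1.88 and 1.64% in the knockout libraries. The groups overlapped. The difference of the means was -0.124 percentage points, from 1.82% ± 0.0999 in WT to 1.70% ± 0.156 in the knockout (SD, n = 3 each; exact two-sided permutation test, p = 0.3). The smallest p that 3 against 3 libraries allow is 0.1. Large subunit genes took 1.09% ± 0.0189 in WT against 1.03% ± 0.108 in the knockout, and small subunit genes 0.738% ± 0.0821 and 0.667% ± 0.0607 (SD, n = 3 each; exact permutation p = 0.4 and 0.5). Adjusted over 4 such shares, p was 0.5 for each of the 3. Without WT 3 the differences were -0.070 percentage points for the family, -0.045 for the large and -0.025 for the small subunit.

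None of the 79 ribosomal protein genes tested differed between the groups past limma's test (adjusted p of 0.05 over all genes), which called 0% of the 18410 genes. The test also missed the deleted gene Hdac2 (limma adjusted p = 0.927), so a gene not called is not shown to be unchanged. At an unadjusted p under 0.05 limma had 341 genes (1.85%), with 0.875% of all genes higher and 0.978% lower. Of these, 2 were ribosomal protein genes, Rps27a and Rpl3l, both lower (2.53% of the 79). DESeq2 called 25 genes (0.136%), Hdac2 among them and no ribosomal protein gene. The count for edgeR was 0 (401 genes at an unadjusted p under 0.05). Of the ribosomal protein genes, 42 had a log2 fold change above 0 and 37 below, with a median of 0.02 against 0.06 over all genes tested. Without WT 3 the split was 34 to 45 and the medians were -0.03 and -0.01. The sign of the family's median also turned with edgeR, DESeq2 and corrections for gene length or GC content, without Hdac2 cKO 2, and without both libraries numbered 3. In all settings run it stayed between -0.05 and 0.15, so no direction for the family is given.

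**Figure D1:**
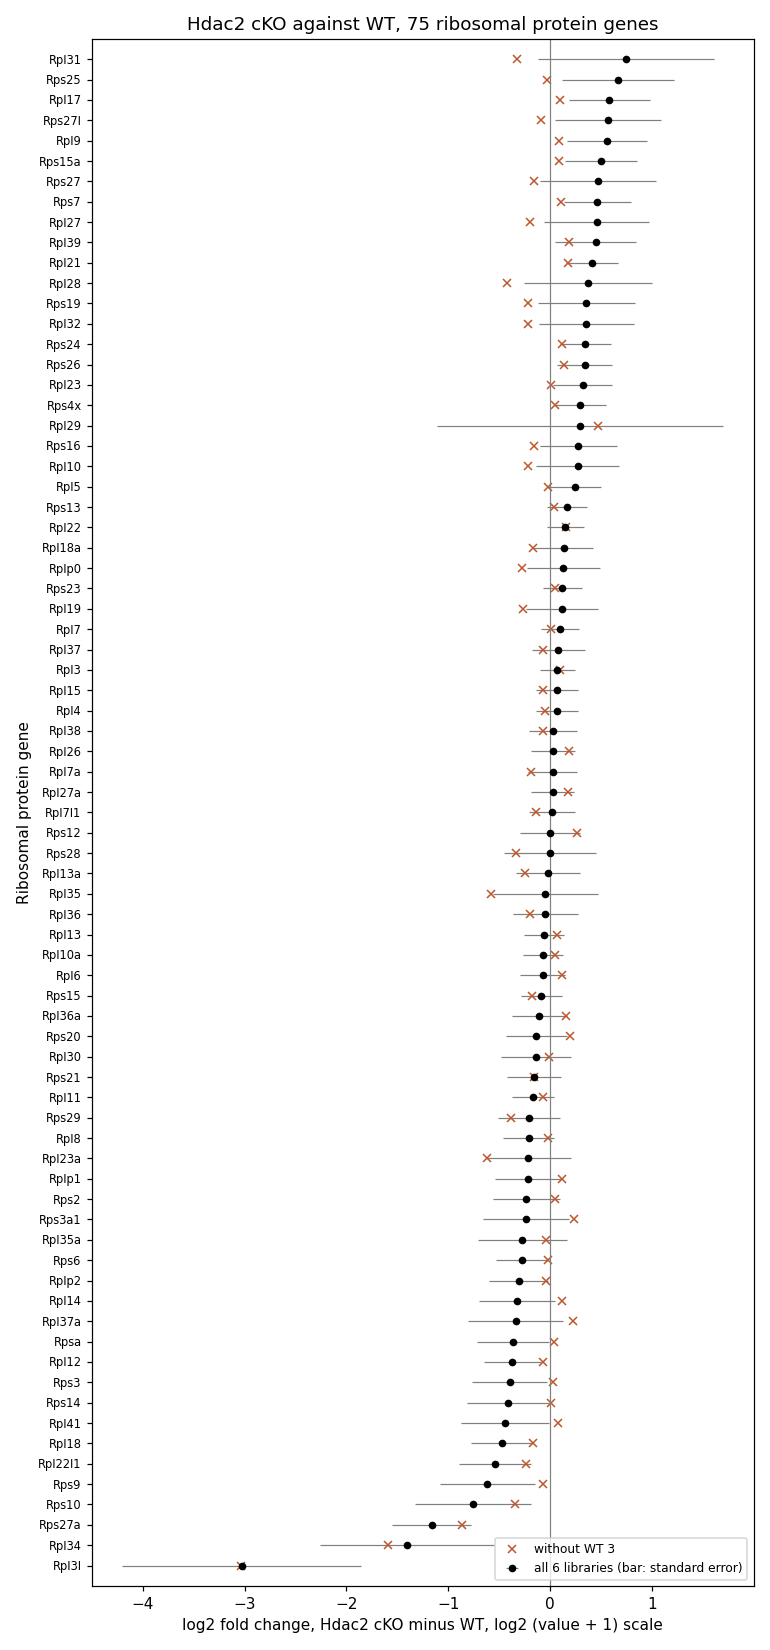
Log2 fold change (Hdac2 cKO minus WT, log2 (value + 1) scale, x axis) of 75 of the 79 ribosomal protein genes tested (y axis), from all 6 libraries with standard errors (black) and without WT 3 (orange crosses). None passed the test, 38 lie above 0 and 37 below, and Rpl3l at -3.03 and Rps27a at -1.16 are the 2 with an unadjusted p under 0.05.

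Groups did not overlap for 2 of the 79 (2.53%), both lower in Hdac2 cKO, against 3.91% of all genes tested that were lower in every knockout library. For higher levels the count was 0 of 79, against 4.63% of all genes, and in either direction the background was 8.54%. Both shares of ribosomal protein genes were below the background.

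Rps27a (ENSMUSG00000020460, mm10 chr11:29545846-29548109, minus strand) encodes ubiquitin fused to the small subunit protein eS31, and is 1 of the genes that supply the cell's ubiquitin. It stood at 6784, 6099 and 11840 normalised reads in the controls, against 2362, 3228 and 5716 in the knockout libraries. The highest knockout library came close to the lowest control, and WT 3 was far above the other controls. A log2 fold change of -1.16, with an SE of 0.39, missed the threshold (limma adjusted p = 0.927). It was -0.87 without WT 3 and ranged from -1.51 to -0.87 with each library left out in turn. DESeq2 gave an unadjusted p of 0.0085 and an adjusted p of 0.910.

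Exons of Clhc1 overlap 20.2% of the Rps27a transcript, and 72.0% of its 50-base stretches also occur in transcripts of other annotated genes, so its count could be shared with them. Marker levels of another cell type were also lower in the knockout libraries. Of 10 myelinating Schwann cell markers, 9 had log2 fold changes below 0. Of the 10, 6 were lower in every knockout library, against 3.91% of all genes tested. The summed levels of the 10 were 364361, 357415 and 240629 normalised reads in the controls, against 197268, 224778 and 140004 in the knockout libraries. WT 3 and Hdac2 cKO 3 had the lowest sum of their groups and the highest Rps27a level. No marker was at 0 in all libraries. The part of Schwann cells in the Rps27a values was not tested.

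Rpl3l (ENSMUSG00000002500, mm10 chr17:24727820-24736143, plus strand), the paralog of Rpl3 used in the ribosomes of skeletal and heart muscle, stood at 45.9, 44.7 and 45.0 normalised reads in the controls and at 0, 21.6 and 6.99 in the knockout libraries. The 3 controls were nearly equal and all above the knockout libraries. These levels rest on 52, 30 and 44 reads in WT and 0, 22 and 10 reads in Hdac2 cKO, and the 0 reads of Hdac2 cKO 1 allow a level of up to 3.03 (3 reads, counting error only). A log2 fold change of -3.03, with an SE of 1.17, missed the threshold (limma adjusted p = 0.927) and was -1.78 to -4.03 with each library left out in turn. Without WT 3 it was also -3.03. Both edgeR and DESeq2 gave -2.26, with an unadjusted p above 0.05 and adjusted p of 0.975 and 0.993.

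Skeletal muscle markers were lower in the same libraries. Of 18 markers, 17 were tested. All 17 had log2 fold changes below 0, with a median of -3.44, and 14 were lower in every knockout library, against 3.91% of all genes tested. The summed level of the 17 markers other than Pvalb, which proprioceptive sensory neurons also express, was 13560, 5475 and 4784 normalised reads in the controls, against 614, 1871 and 557 in the knockout libraries. Pvalb alone stood at 4579, 5320 and 24563 against 3256, 2960.3 and 6217, with overlapping groups. The marker not tested, Tnnc2, was at 0 in every library but WT 2. The part of muscle tissue in the Rpl3l values was not tested. The sequence window at the start of Rpl3l, printed above, held neither CCGGAAG nor a run of C and T bases at its start.

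Next to Rps27a and Rpl3l, the lower genes with the smallest p were Rpl34, Rpl18 and Rpl22l1, and those higher included Rpl21, Rpl17, Rpl9 and Rps15a. None passed (limma adjusted p = 0.927 for each). Rpl34 (ENSMUSG00000062006, mm10 chr3:130726831-130730398, minus strand), a large subunit protein, stood at 219.7, 2953 and 544 normalised reads in the controls, against 335, 191 and 295 in the knockout libraries. WT 2 alone was high. The log2 fold change of -1.41 became -0.38 without WT 2, while DESeq2 gave an unadjusted p of 0.00574 and an adjusted p of 0.747 with all libraries.

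Rpl18, also of the large subunit, stood at 5296, 7195 and 11480 in the controls, against 4674, 6140 and 5719 in the knockout libraries (log2 fold change -0.47, and -0.17 without WT 3). WT 3 was the highest library. Rpl21 stood at 3773, 2889 and 2042 in the controls, against 3584, 3869 and 3749 in the knockout libraries (log2 fold change 0.41, and 0.18 without WT 3). For Rpl21 WT 3 was the lowest library and the groups overlapped. Rpl17, at the exit of the large subunit's tunnel, stood at 6179, 6297 and 2261 against 6251, 7309 and 6449. Rpl9, at the base of the stalk, stood at 7707, 7207 and 2770 against 7252, 8647 and 7849. Rps15a, of the small subunit, stood at 4662, 4302 and 1912 against 4569, 5312 and 4427. WT 3 was again the only library far below the rest, and log2 fold changes of 0.58 for Rpl17, 0.56 for Rpl9 and 0.50 for Rps15a became 0.09, 0.08 and 0.09 without it.

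WT 3 was often the extreme library. It was the highest of the 6 libraries for 28 of the 79 genes (35.4%) and the lowest for 40 (50.6%), against 30.5 and 40.7% of all genes tested. Of the 79, 12 (15.2%) lay more than 1 log2 unit above the mean of the other 5 libraries there and 18 (22.8%) more than 1 below, against 17.5% and 22.6% of all genes tested, so these shares were near the background. The 12 above were Rpl3l, Rps9, Rpl37a, Rpl41, Rps10, Rps27a, Rps3a1, Rps3, Rpl14, Rps14, Rpsa and Rpl22l1. The 18 below included Rpl31, Rpl28, Rps25, Rps27l, Rpl27, Rps27, Rps19, Rpl32, Rpl17, Rpl9, Rpl10, Rps15a, Rpl35, Rps16, Rps7 and Rplp0. Both sets held proteins of both subunits, 5 large and 7 small above, and 9 large and 9 small below. In each other library 3.80 to 8.86% of the 79 genes lay that far from the rest.

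**Figure D2:**
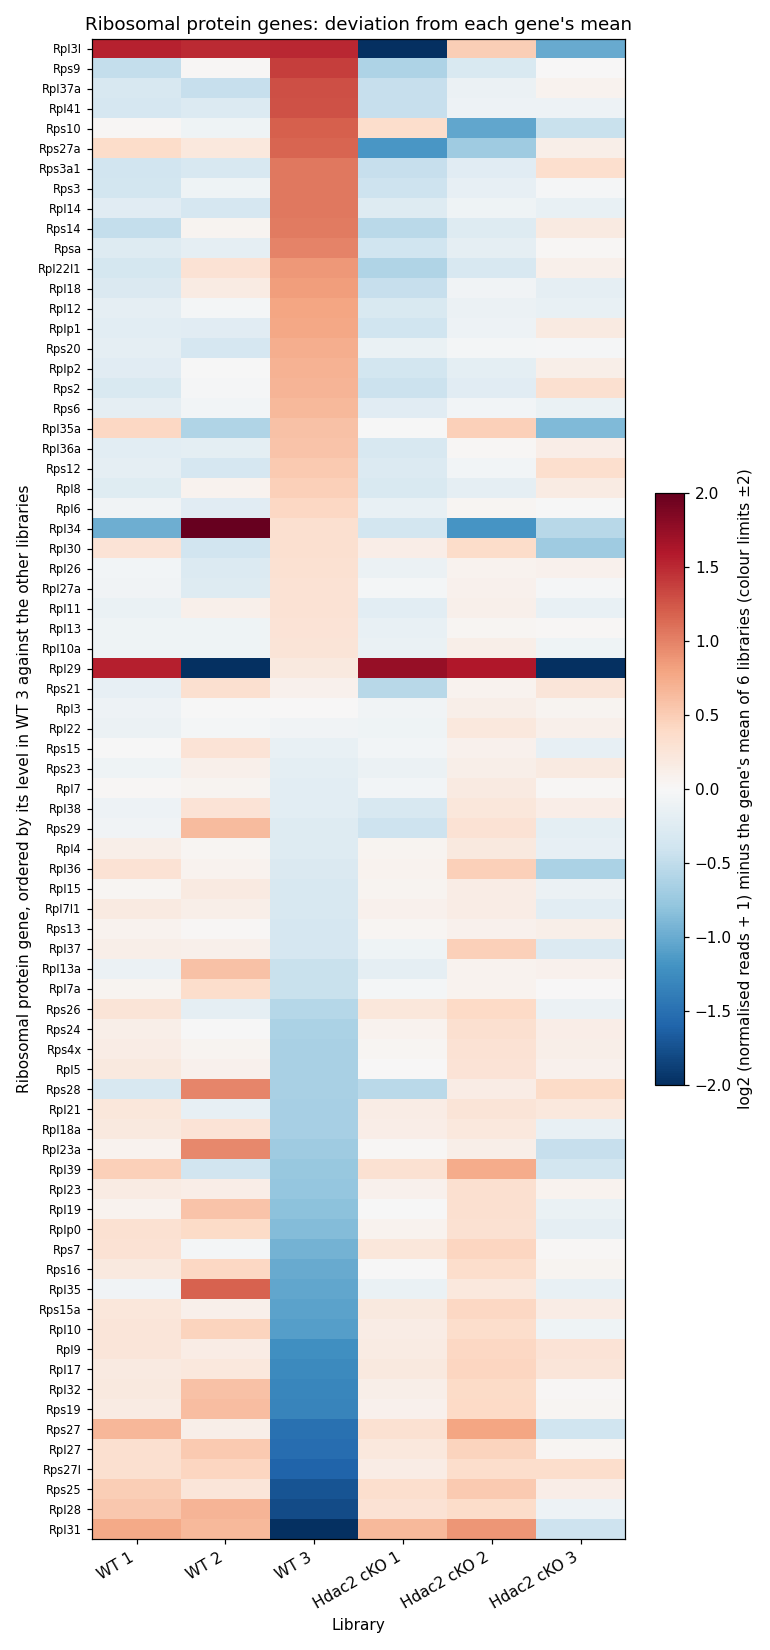
Deviation of log2 (normalised reads + 1) from each gene's mean over the 6 libraries (colour, limits at ±2) for 75 of the 79 ribosomal protein genes tested (rows, ordered by WT 3 against the other libraries) in each library (columns). In the WT 3 column 12 genes at the top and 16 at the bottom lie more than 1 log2 unit from the other 5 libraries, while most rows are pale in the other columns.

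**Figure D3:**
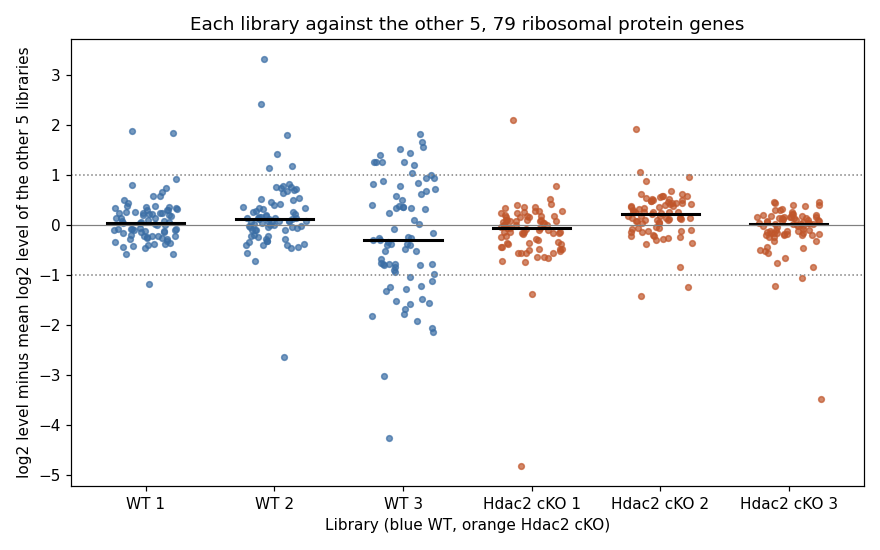
For each library (x axis; blue WT, orange Hdac2 cKO), the log2 level of each of the 79 genes minus its mean log2 level in the other 5 libraries (y axis; 1 point per gene, black bar at the median, dotted lines at ±1). WT 3 has 30 genes outside the dotted lines, and the other libraries have 3 to 7.

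The split ran through the stalk, the large subunit's arm that binds translation factors. Rplp0, its base protein, stood at 15186, 16066 and 6746 normalised reads in the controls, against 12951, 15236 and 10931 in the knockout libraries. Rplp1, a partner protein of the stalk, stood at 16911, 16626 and 33431 against 14819, 18173 and 22109. Rplp2, the other partner, stood at 5287, 6094 and 10025 against 4753, 5353 and 6649. WT 3 was thus the lowest library for Rplp0 and the highest for Rplp1 and Rplp2, and the groups overlapped for all 3. The log2 fold change of Rplp0 was 0.13 with all libraries and -0.27 without WT 3.

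Of the small subunit, Rpsa, at the messenger RNA exit and also known as the laminin receptor, stood at 12718, 13487 and 30373 normalised reads in the controls, against 11585, 13501 and 15544 in the knockout libraries. Rps3, at the messenger RNA entry, stood at 8744, 10606 and 23427 against 8483, 10067 and 11092. Rps6, the substrate of S6 kinase, stood at 9654, 10579 and 17183 against 9327, 10587 and 9978. WT 3 was the highest library for all 3, while the other 5 libraries of Rps6 stayed within 1.14-fold of each other.

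Other small subunit genes were lowest in WT 3. Rps19, the gene most often mutated in Diamond-Blackfan anaemia, stood at 4879, 6675 and 1733 in the controls, against 4595, 5727 and 4480 in the knockout libraries. Rps25, needed by several viral internal ribosome entry sites, stood at 7103, 5977 and 1537 against 6391, 7266 and 5567. Rps27 stood at 5860, 4020 and 1320 against 4562, 6409 and 2816. In all 3, WT 3 was the lowest library and the other libraries of the groups overlapped.

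Of the large subunit, Rpl5 and Rpl11, which with 5S rRNA form the particle that restrains Mdm2, lay on opposite sides of the other libraries in WT 3. Rpl5 stood at 7674, 7116 and 4266 normalised reads in the controls, against 6710, 8046 and 7084 in the knockout libraries. Rpl11 stood at 7493, 8849 and 9988 against 7100, 8857 and 7380. WT 3 was the lowest library for Rpl5 and the highest for Rpl11. Rpl10a, linked in other work to translation of chosen mRNAs, stood at 6349, 6328 and 8056 against 6145, 7259 and 6311. Rpl38, needed for translation of Hox mRNAs in the embryo, stood at 3728, 4870 and 3447 against 3216, 4672 and 4407. For neither gene were the groups separate.

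Rpl41, the shortest ribosomal protein, stood at 13301, 13886 and 40494 normalised reads in the controls, against 12160, 15552 and 15711 in the knockout libraries. WT 3 alone was high, and the log2 fold change of -0.44 became 0.08 without it. Rpl31 (ENSMUSG00000073702, mm10 chr1:39367842-39371911, plus strand) had the opposite pattern, at 6748, 6211 and 691 against 6213, 7358 and 2991. Both libraries numbered 3 were low, and exons of Tbc1d8 overlap 40.04% of its transcript.

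Rpl29 (ENSMUSG00000048758, mm10 chr9:106429454-106431568, plus strand), a large subunit protein also described as a heparin-binding protein, split the libraries of both groups. It stood at 2827, 207 and 1102 normalised reads in the controls, against 3209, 2918 and 127 in the knockout libraries. WT 1 and Hdac2 cKO 1 and 2 were high, WT 2 and Hdac2 cKO 3 low, and WT 3 between. The log2 fold change of 0.29 (SE 1.41) thus ran from -0.73 without WT 2 to 1.82 without Hdac2 cKO 3. It was also below 0 without Hdac2 cKO 1 and without Hdac2 cKO 2. Blood cell markers were also highest in WT 1 and Hdac2 cKO 1 and 2. The summed level of 7 erythroid markers was 53291, 7113 and 2758 in the controls, against 51225, 77527 and 1340 in the knockout libraries. That of 13 lymphocyte and granulocyte markers was 23919, 1368 and 535 against 13413, 21818 and 283. No marker of either list was at 0 in all libraries. Between WT 2 and WT 3 the order differed, with both marker sums higher in WT 2 and Rpl29 higher in WT 3. Of the 50-base stretches of the Rpl29 transcript, 66.8% also occur in transcripts of other annotated genes, so its count could be shared with them. The part of blood cells or of such shared stretches in the Rpl29 values was not tested. Rpl39, at the wall of the peptide exit tunnel, stood at 5195, 2848 and 2208 against 4596, 6231 and 2893, also with WT 1 and Hdac2 cKO 1 and 2 as the highest libraries. This order was not particular to Rpl29 and Rpl39. The same libraries were the highest for other members, among them Rps27, Rps25, Rpl31 and Rps7.

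**Figure D4:**
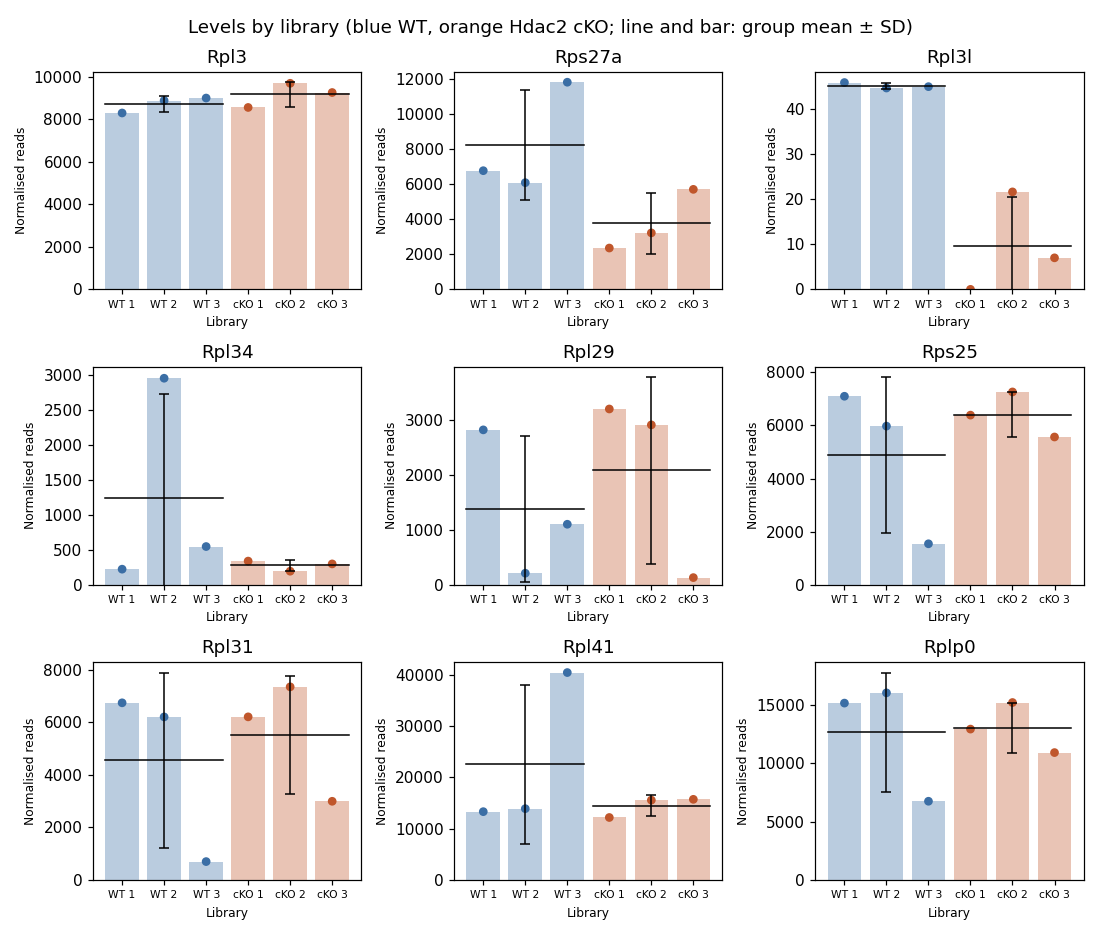
Normalised reads by library (x axis; blue WT, orange Hdac2 cKO) for 9 ribosomal protein genes, with group means (lines) and SD (bars, cut off at 0; n = 3 per group). Rpl3 is level across libraries, Rps27a and Rpl3l are lower in every knockout library, and Rpl34 is high in WT 2 alone. Rpl29 is low in WT 2 and Hdac2 cKO 3, with WT 3 between these and the rest. WT 3 is low for Rps25, Rpl31 and Rplp0 and high for Rpl41.

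At the other end stood genes that hardly varied. Rpl3, next to the peptidyl transferase centre, stood at 8298, 8883 and 9000 normalised reads in the controls, against 8558, 9695 and 9261 in the knockout libraries. Its SD over the 6 libraries, 0.08 on the log2 scale, was the smallest of the 79. Rpl22 stood at 4191, 4397 and 4319 against 4285, 5234 and 4836, and Rpl7 at 9922, 10167 and 8431 against 9479, 11067 and 9908. Rps13 had the narrowest range without WT 3, where its highest library was 1.07 times its lowest. Over the 78 genes above 0 in every library, the highest library was a median of 1.38 times the lowest without WT 3 and 2.16 times with it. Without WT 3, 49 of the 78 stayed under 1.5-fold and 15 exceeded 2-fold, of which Rpl29 was the widest at 25.3-fold and Rpl34 next at 15.5-fold.

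Abundant ribosomal protein genes and other abundant genes were set side by side. Among those with a mean over 1000 normalised reads, the median SD of log2 levels was 0.39 for 71 ribosomal protein genes and 0.33 for 5882 other protein-coding genes. Without WT 3 it was 0.18 and 0.20. In WT 3, 36.6% of the 71 and 26.1% of the 5882 lay more than 1 log2 unit from the mean of the other 5 libraries. These are descriptions with no test. The most alike libraries over the 71 genes came from different groups, WT 1 and Hdac2 cKO 1, with a median distance of 0.09 log2 units. Every pair with WT 3 was 0.76 to 0.91 apart, and every other pair at most 0.26. Over the 5882 other genes, pairs with WT 3 were 0.49 to 0.67 apart and every other pair at most 0.30. Their closest pair, WT 1 and Hdac2 cKO 2 at 0.103, also crossed the groups, with Hdac2 cKO 1 and 2 nearly as close at 0.105.

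Several paralogs replace a ribosomal protein in particular tissues. Rpl22l1, the paralog of Rpl22, stood at 692, 1085 and 1619 normalised reads in the controls, against 583, 709.6 and 954 in the knockout libraries (log2 fold change -0.54, and -0.24 without WT 3). Rps27l, a p53 target and paralog of Rps27, stood at 1091, 1176 and 289 against 967, 1118 and 1123. WT 3 was the highest library for Rpl22l1 and the lowest for Rps27l, whose log2 fold change of 0.57 became -0.09 without WT 3. Rpl7l1, a relative of Rpl7, stood at 1671, 1599 and 1183 against 1572, 1633 and 1283.

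Of the testis paralogs, Rpl10l had no reads in any library, which allows up to 2.10 to 4.47 normalised reads per library (3 reads, counting error only). Rpl39l had a single read in WT 2 and 2 reads in Hdac2 cKO 3. Rpl24, a standard large subunit protein, was also near 0, at 6.18, 10.4 and 0 in the controls, against 1.01, 8.85 and 13.99 in the knockout libraries. Another annotated gene, Gm28037, overlaps 71.5% of its transcript.

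Levels between genes were compared per kilobase of the main annotated transcript (mean normalised reads of the 6 libraries). Rplp1 was the highest at 40771 per kilobase, ahead of Rpl41 at 31817 and Rps14 at 17990, and the median of the 79 genes was 7032. The lowest were Rpl3l at 19.9, Rps10 at 70.5 and Rpl13a, a part of the interferon-induced translational silencing complex, at 419. Rps10, a small subunit protein also mutated in Diamond-Blackfan anaemia, stood at 56.5, 52.1 and 128.8 normalised reads in the controls, against 70.7, 26.5 and 40.6 in the knockout libraries, with WT 3 the highest library. Rpl13a stood at 394, 645 and 315 normalised reads against 378, 449 and 453.

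Some genes with low levels per kilobase overlap others in the annotation. Exons of the readthrough gene RPS10-NUDT3 and of Gm15420 overlap 63.6% of the Rps10 transcript, and Gm45713 and Mir5121 overlap 59.3% of that of Rpl13a. Of the genes tested, 8 had at least 40% of their transcript in exons of another gene (Rpl31, Rpl35, Rpl5, Rpl13a, Rps25, Rpl23a, Rpl30 and Rps10), with a median of 2949 normalised reads per kilobase. The 8 with less overlap, above 0, had a median of 4638 and the 63 with none 7991. Across the 79 genes Spearman's rho between overlap and level per kilobase was -0.42, and that between transcript length and level -0.42 too. The level is itself divided by transcript length, so a negative rho with length is partly built in and is not read further. Both rho values describe genes that share the libraries, and Rpl3l, the lowest gene, had no overlap. The sources used here do not give the strand setting, or whether overlapping reads were dropped or assigned, so the values of these genes are uncertain.

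**Figure D5:**
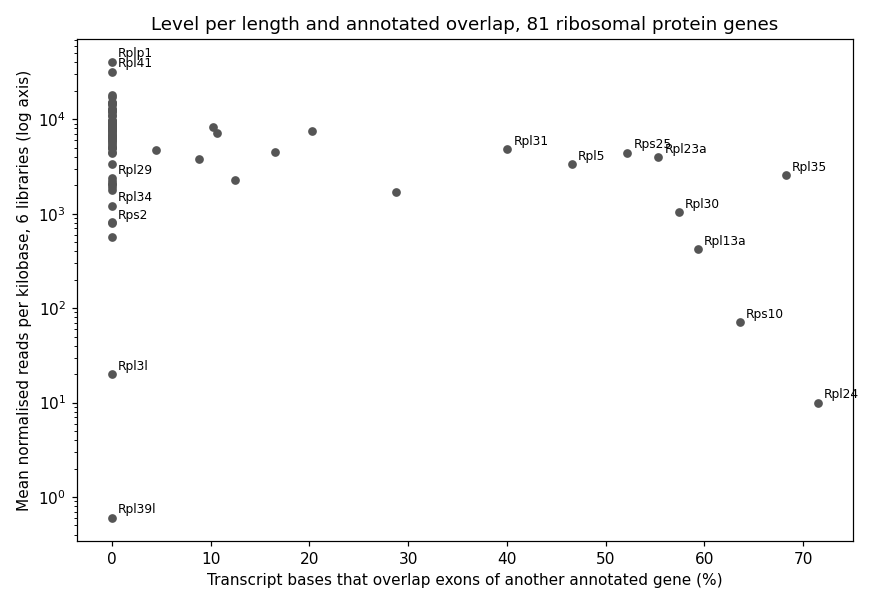
Mean normalised reads per kilobase over the 6 libraries (y axis, log scale) against the share of the main transcript that overlaps exons of other annotated genes (x axis, percent), 1 point for each of the 81 ribosomal protein genes above 0. Rpl24 at 71.5%, Rps10 at 63.6% and Rpl13a at 59.3% lie below the other genes with overlap, and Rplp1 and Rpl41 with no overlap are the highest.

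Ribosomal protein genes also have many near copies in the genome, and the table itself lists 301 rows of their pseudogenes. The share of 50-base stretches that a gene's main transcript has in common with transcripts of other genes ran from 0% for Rpl3l to 98.6% for Rps27, whose nearest copy was Rps27rt. Spearman's rho between this share and the level per kilobase was 0.18, and between it and the distance of WT 3 from the other libraries -0.14 (79 genes, descriptions with no test). Transcript length had a rho of 0.05 with the distance of WT 3, and GC content 0.18. Rps27rt, read separately, stood at 441, 518 and 81.8 normalised reads in the controls, against 469, 594 and 422 in the knockout libraries. It was low in WT 3 as Rps27 was, and reads of the pair may have been split between them.

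Other ribosomal components outside the name rule were read beside the family. Fau, which encodes the small subunit protein eS30 as a fusion, stood at 7793, 8932 and 8092 normalised reads in the controls, against 7387, 8289 and 8587 in the knockout libraries. Rack1, the small subunit's signalling scaffold, stood at 6117, 5335 and 4616 against 5756, 6278 and 5046. Both overlapped between groups. Rpl36al, a paralog of Rpl36a, stood at 11.5, 19.4 and 79.7 against 7.07, 7.86 and 6.99, and all its knockout libraries were lower, on 7 to 10 reads each.

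Genes that act with ribosomal proteins gave no call by limma either. Of 19 translation factors with TOP mRNAs, 12 had log2 fold changes above 0 and 7 below (median 0.05, and 0.01 without WT 3), and none was separate between groups. Eef1a1, which brings aminoacyl-tRNA to the ribosome, stood at 60898, 67537 and 52217 normalised reads in the controls, against 60980, 64731 and 58846 in the knockout libraries. Eef2, the translocation factor, stood at 32138, 45512 and 15793 against 32275, 31446 and 25282. Tpt1, the translationally controlled tumour protein, stood at 20460, 24488 and 9674 against 17793, 20774 and 20350. WT 3 was the lowest library for all 3.

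The genes of this list with the smallest p were Eif3e, a subunit of initiation factor 3, at 2367, 2691 and 1357 against 2470, 2602 and 2826, and Eef1d, an exchange factor for Eef1a1, at 2067, 2795 and 4893 against 2128, 2094 and 3252. WT 3 was the lowest library for Eif3e and the highest for Eef1d.

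Mitochondrial ribosomal proteins, which build the separate ribosome of mitochondria, took 0.300% ± 0.0277 of gene reads in WT against 0.259% ± 0.0109 in the knockout (SD, n = 3 each). By library this was 0.269, 0.310 and 0.322% in the controls, against 0.247, 0.263 and 0.268% in the knockout libraries. All controls were above all knockout libraries, by a margin as small as that between 0.269 and 0.268% (exact two-sided permutation test, p = 0.1, the smallest 3 against 3 allow, and 0.4 adjusted over the 4 shares). The difference of -0.041 percentage points was -0.030 without WT 3. Of 77 genes tested, 29 had log2 fold changes above 0 and 48 below, with a median of -0.09, and -0.15 without WT 3. Groups did not overlap for 8 of the 77, all lower in Hdac2 cKO, against 3.91% of all genes lower and 8.54% in either direction. Mrps34, of the small mitochondrial subunit, stood at 522, 1075 and 2362 normalised reads in the controls, against 480.0, 444 and 522 in the knockout libraries (log2 fold change -1.19, and -0.64 without WT 3). Mrps22 stood at 528, 521 and 94.0 against 547, 677 and 435, with WT 3 alone low.

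Ribosome biogenesis genes, 50 in all, had 20 log2 fold changes above 0 and 30 below (median -0.11, and -0.05 without WT 3). Nop56, a core protein of box C/D snoRNPs, stood at 1954, 1818 and 1801 normalised reads in the controls, against 1975, 2028 and 2650 in the knockout libraries. Taf1c, a subunit of the RNA polymerase I selectivity factor, stood at 290.3, 267 and 309.7 against 181, 165 and 239.9. Both were separate between groups, as were 3 more genes of the list, all lower, against 8.54% of all genes in either direction. Myc, an activator of ribosomal protein genes, stood at 287, 295 and 120 against 260, 266 and 357, with overlapping groups.

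Of 22 genes of mTOR and S6 kinase control, 12 had log2 fold changes above 0 and 10 below (median 0.07, and 0.03 without WT 3). In every knockout library 2 were higher and 0 lower, against 4.63% of all genes higher and 8.54% in either direction. Rps6kb1, the kinase of Rps6, was 1 of the 2 higher genes. It stood at 1758, 1371 and 759 normalised reads in the controls, against 1957, 2125 and 2004 in the knockout libraries. The log2 fold change, 0.73 with an SE of 0.32, missed the threshold (limma adjusted p = 0.927) and was 0.38 without WT 3, the lowest library. Akt1s1, an inhibitory partner of mTOR, stood at 1783, 2540 and 3276 against 1676, 1671 and 2336. Larp1, which binds the TOP motif, stood at 5847, 6507 and 13589 against 6817, 6062 and 10631, with both libraries numbered 3 high.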

How the data were processed

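Bulk RNA-seq of dorsal root ganglia was analysed in 6 libraries, 3 WT and 3 Hdac2 cKO, grouped and numbered by their titles. Per the submitters' processing notes, the tools were HISAT2, SAMtools, featureCounts and DESeq2, and the genome build was mm10. The annotation release, tool versions, strand setting and handling of multi-mapping and overlapping reads: not given in the sources used here. The deposited signal values were gene reads over a size factor of each library. Taking a column's smallest value above 0 as 1 read, 100% of values came out whole within 0.01. Totals ranged from 18943595 to 42070531 reads. No column was left unmapped. Of the identifiers, 54409 matched GENCODE M21, on the same assembly (GRCm38), which gave names, coordinates, the main transcript (by its principal-isoform tag, support level and length) and its overlap with exons of other genes on either strand.

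The main test was limma 3.58.1 (R 4.3.3) of log2 (value + 1), with robust variances and a trend on intensity. It covered the 18410 genes that reached 10 in 3 or more libraries and was two-sided, with Benjamini-Hochberg adjustment over all of them and a threshold of 0.05. On this scale the added 1 shrinks the change of a low gene, while a single library at 0, as for Rpl3l, can enlarge it. Alternatives were edgeR 4.0.16 (TMM) and DESeq2 1.42.0 on the recovered reads, other scalings, filters and pseudocounts, a replicate block, length and GC corrections, and leaving out each library. Leaving out both libraries numbered 3 was chosen after seeing the data. The fits were tested on simulated data. Shares of reads were compared by exact permutation tests over libraries.

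The members and gene lists were chosen with earlier results of these data known. Genes were named by a written rule: stalk genes, members of known role, paralogs, the 5 of smallest p in each direction, the extremes of level per kilobase and of spread, listed partners and, per pathway list, the gene of smallest p in each direction. Other genes named, among them Rpl31 and Rps13, were chosen after their values were seen. Some genes that the rule names are not reported here.

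Pairing by replicate number was checked: deviations from group means correlated by 0.40, 0.15 and 0.42 between libraries of the same number over all genes. Each was over 0.1, so the numbers were used as pairs in the replicate block only. The main test and the permutation tests were unpaired. For Rps27a limma's unadjusted p was 0.0195 unpaired and 0.000619 with the block (adjusted p = 0.674 with the block). WT 1 and Hdac2 cKO 2, of different numbers, correlated by 0.34, so the pairing is uncertain. It rests on the data alone, since the labels name no pairing. Over the ribosomal protein genes alone the values were 0.36, -0.14 and 0.30. There WT 1 and Hdac2 cKO 2, of different numbers, correlated by 0.53, above every pair of the same number. WT 2 and Hdac2 cKO 3 correlated by 0.17.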

Additional observations from a re-analysis of the deposited data

How the results depend on the processing

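No ribosomal protein gene was called, in either direction, under the main test or any of the 20 other fits, the replicate block and the 6 fits that leave out a library included (0 to 0 in each direction). With the replicate block, which pairs the libraries by number, 0 ribosomal protein genes passed and 3 had an unadjusted p under 0.05 (Rps27a, Rpl3l and Rpl22l1). The block changed no call. The median log2 fold change of the family was 0.02 in the main fit, and -0.05 to 0.15 with each library left out. The difference in the share of reads was -0.21 to -0.06 percentage points with each library left out. The gene length correction moved the median of all genes from 0.06 to -0.03 and that of the family from 0.02 to -0.03, which put the family's median just below that of all genes before and just above it after. Over 16 genes, 309 of 319 recomputed fold changes kept their direction and their side of the threshold, 9 turned direction, and 12 of the 16 genes turned in no setting. Without both libraries numbered 3, Rps27l was at -0.12, Rplp0 at -0.15 and Rpl41 at 0.017. With each library left out in turn, Rpl29 ran from -0.73 to 1.82, Rps27l from -0.087 to 0.92, Rplp0 from -0.27 to 0.35 and Rpl41 from -0.72 to 0.081. The cause was not tested. Hdac2 was called by DESeq2 (log2 fold change -2.54, adjusted p = 1.76e-08) and not by limma or edgeR. Depth limits Rpl3l, Rpl24, Rpl39l and Rpl36al, which rest on few reads.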
